A study of Rattus norvegicus with 18 samples.

Results

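The genes described here encode the subunits of the constitutive proteasome together with its activators and assembly factors. They were taken as the probe sets of the array whose single gene symbol begins with Psma to Psmg and a number, leaving out the immunoproteasome subunits Psmb8, Psmb9 and Psmb10. Each gene was represented by its brightest probe set over all arrays. The rule gave 41 of the 14022 genes that the array names by a single symbol. They were named by 57 of its 31099 probe sets, and 31 of them had 1 probe set. Of the 41, 40 are proteasome genes, while Psmc3ip, which binds the ATPase subunit Psmc3 and is no subunit, matched by its letters only and had the lowest mean signal of the 41 (175). The 40 comprise 6 genes of the 20S alpha ring, 4 structural and 3 catalytic genes of the 20S beta ring, 6 ATPases and 11 other subunits of the 19S particle, 3 chaperones of 19S assembly, 4 activator subunits and 3 chaperones of 20S assembly. Psma3 was not analysed here, because its probe sets carry several symbols, and Psmg3 was deposited under an older symbol.

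The livers came from Sprague-Dawley rats 12 weeks old. Partial hepatectomy (PH) removes part of the liver, after which the remainder regrows. Both nerve supplies of the liver were cut before PH in the group called TDPH (total liver denervation), the sympathetic supply in SPH (sympathectomy) and the vagal supply in VPH (vagotomy). The further groups were PH with the nerves left in place, a sham operation, and normal liver at 0 h, and the 5 operated groups were sampled at 2 h. Each of the 6 groups had 3 arrays (18 in all), and no group was denervated without PH. Arrays of 1 group are technical replicates by their labels, so p-values and SEs reflect variation among arrays and not among animals, whose number the sources used here do not give. In whole liver, fewer cells of a type and less RNA per cell cannot be told apart.

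The proteasome degrades proteins that carry ubiquitin chains. Its 20S core is a barrel of alpha and beta rings with the proteolytic sites inside, and the 19S particle on its ends binds the chain, removes it and uses ATP to unfold the substrate. Subunit genes are known to be transcribed together, and the factor Nfe2l1, which is released from the endoplasmic reticulum with the help of the ATPase Vcp, raises them through antioxidant response elements when the proteasome falls short. In immune responses, interferon replaces the catalytic subunits with those of the immunoproteasome and raises the activator PA28.

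The promoters, from 250 bases before to 50 bases after each transcription start, were read from RefSeq on the build GRCr8, where 37 of the 41 genes had an entry. Psma7, Psmd6, Psmd12 and Psmd14 had none. On either strand, the ETS core CCGGAAG was present in 14 of the 37 promoters (37.8%), against 9.22% of all 27457 promoters of the same length. The GC box GGGCGG was present in 28 (75.7%, against 34.9%), the CCAAT box CCAAT in 17 (45.9%, against 37.7%) and the TATA box TATAAA in 4 (10.8%, against 14.3%). The antioxidant response element core TGACNNNGC was present in 7 (18.9%, against 12.2%), namely Psmb2, Psmb5, Psmb6, Psmd1, Psmd3, Psmd9 and Psme4. The interferon response element core, a pair of GAAA half-sites 2 bases apart, was present in 5 (13.5%, against 3.77%), namely Psma4, Psmb3, Psmd7, Psme2 and Psmg4. Each match is a match of letters and was not tested as a site, and no motif searched contains another. Promoters of 4 genes that hold one of these matches and are called in the results below are given 5′ to 3′ on the gene's strand, with the match in capitals. They are those of the catalytic subunits Psmb5 (chr15:32047330-32047629, minus strand) and Psmb6 (chr10:55737638-55737937, plus strand), with the antioxidant response element core, of the ATPase Psmc2 (chr4:14162341-14162640, minus strand), with the ETS core on the opposite strand, and of the PA28 subunit Psme2 (chr15:33052702-33053001, minus strand), with the interferon response element core.
Psmb5: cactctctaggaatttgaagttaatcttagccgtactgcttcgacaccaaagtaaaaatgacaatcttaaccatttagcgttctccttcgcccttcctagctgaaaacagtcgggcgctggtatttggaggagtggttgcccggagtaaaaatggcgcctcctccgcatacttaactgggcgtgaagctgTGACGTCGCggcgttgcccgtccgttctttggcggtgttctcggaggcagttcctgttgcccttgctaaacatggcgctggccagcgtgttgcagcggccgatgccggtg
Psmb6: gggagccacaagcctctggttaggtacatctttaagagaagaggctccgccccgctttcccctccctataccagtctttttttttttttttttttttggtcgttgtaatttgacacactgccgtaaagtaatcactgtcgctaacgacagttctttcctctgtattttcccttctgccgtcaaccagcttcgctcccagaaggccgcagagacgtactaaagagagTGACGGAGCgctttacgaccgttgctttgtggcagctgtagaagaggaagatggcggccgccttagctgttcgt
Psmc2: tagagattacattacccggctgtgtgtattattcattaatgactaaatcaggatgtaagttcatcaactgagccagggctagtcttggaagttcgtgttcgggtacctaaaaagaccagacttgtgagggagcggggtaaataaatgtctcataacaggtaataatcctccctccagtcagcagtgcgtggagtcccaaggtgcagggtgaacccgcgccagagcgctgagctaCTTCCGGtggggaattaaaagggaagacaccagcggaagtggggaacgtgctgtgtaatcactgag
Psme2: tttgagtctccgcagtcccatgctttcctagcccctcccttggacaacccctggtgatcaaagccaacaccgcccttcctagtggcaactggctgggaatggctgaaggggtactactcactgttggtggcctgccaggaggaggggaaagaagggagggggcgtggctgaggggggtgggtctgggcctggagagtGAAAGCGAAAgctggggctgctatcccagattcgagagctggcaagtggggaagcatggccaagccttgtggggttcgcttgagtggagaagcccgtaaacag

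All 16 hepatocyte markers passed the filter on dim probe sets. The arrays of a group correlated with each other at r = 0.957 or more, except those of SPH, where r was 0.949 to 0.95. The summed signal of 18 lymphocyte markers was 10966, 12805 and 25162 on the SPH arrays, that of 7 neutrophil markers 41911, 25451 and 19915, and that of 5 red cell markers 15776, 27165 and 13066. The SPH arrays thus differed among themselves in the markers of blood cells, and SPH results are given with the count of calls when single arrays are left out. No 2 arrays had identical signals. The ratio of 3′ to 5′ Gapdh signal, a measure of RNA integrity, lay between 1.17 and 1.35.

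All 40 proteasome genes had a mean signal above the median signal of the arrays, which was 115 to 150. It ranged from 713 for Psmd10 (the assembly chaperone gankyrin) to 9384 for the alpha ring subunit Psma6, with a median of 2727. These values are scaled intensities of different probe sets and do not rank the genes by transcript number. All 41 genes passed the filter on dim probe sets. Differences between groups were small throughout. They are given on the scale of log2(signal + 12), and a gene was called higher or lower at an adjusted p under 0.05 (limma, Benjamini-Hochberg over 22125 probe sets). In the 8 comparisons of 2 groups, 34 of the 41 genes were called at least once, against 50.4% of all probe sets tested and 85.9% of the 4950 in the same range of mean level, so that this share was near that of similarly bright probe sets. Of the 41, 0 differed by as much as 2-fold. Of all probe sets tested, a call with at least a 2-fold difference was made for 2.82% in TDPH minus VPH, 2.78% in SPH minus VPH, 1.79% in VPH minus PH and 1.65% in TDPH minus PH. It was made for 1.66% in TDPH minus SPH, 1.49% in SPH minus PH, 4.37% in PH minus sham and 3.02% in sham minus normal. Psma1, Psmb2, Psmc3ip, Psmd3, Psmd13, Psme3 and Psmg2 were called in none of the 8.

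**Figure D1:**
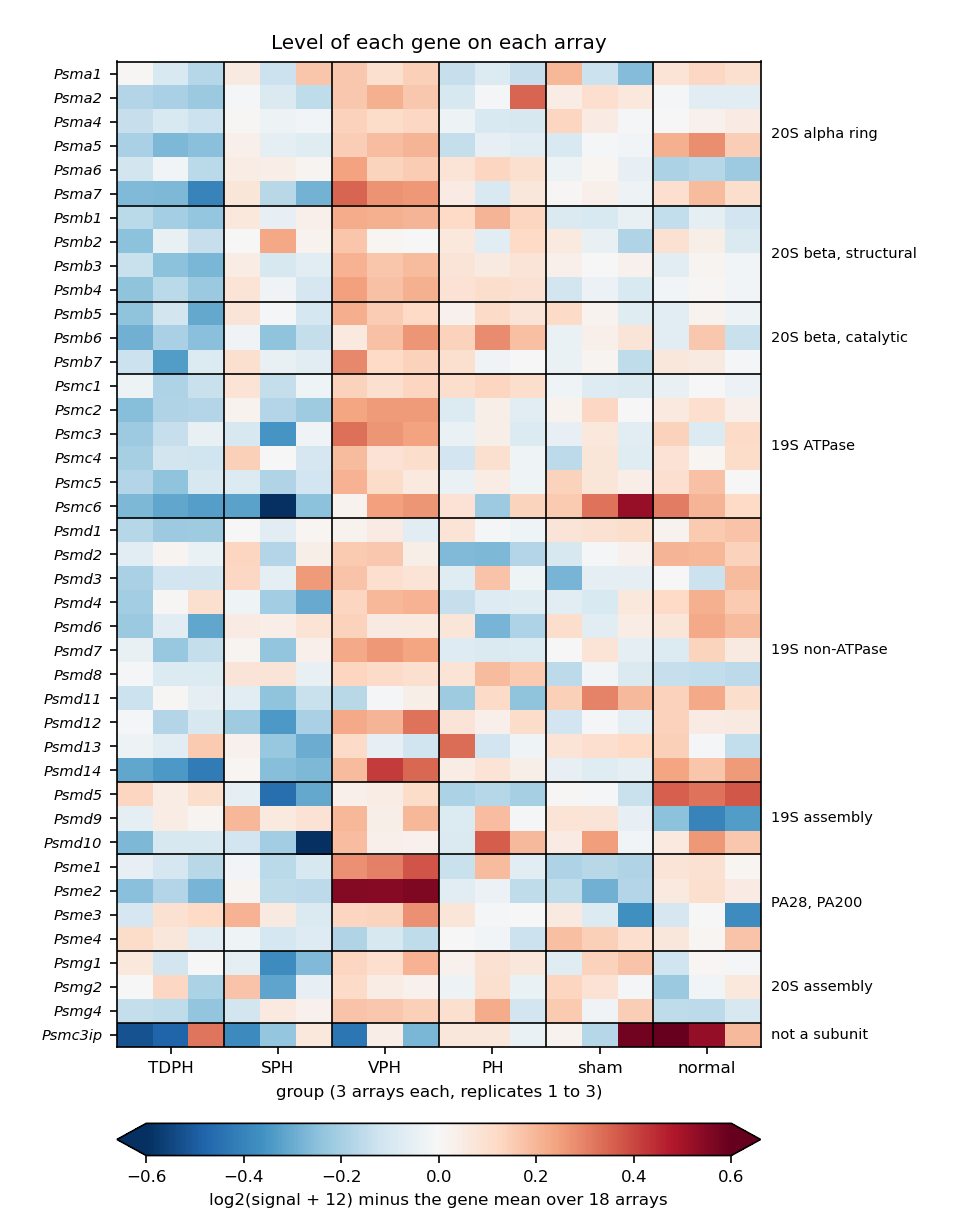
Level of each of the 41 genes on each of the 18 arrays, as log2(signal + 12) minus the gene's mean over all arrays, with genes in rows by role and arrays in columns by group. Red is above and blue below the gene's mean, and colours beyond 0.6 either way are held at the end of the scale. The TDPH columns are mostly blue and the VPH columns mostly red.

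Among the 4 groups with PH, the proteasome genes were lowest with both nerve supplies cut and highest with the vagus alone cut. TDPH had the lowest mean in 27 of the 41 genes (65.9%), against 18.9% of all probe sets tested and 27.1% of the 4950 probe sets in the same range of mean level. VPH had the highest mean in 32 of 41 (78%), against 28% and 26.9%. The median of log2(signal + 12) over the 41 genes was 11.26 to 11.33 on the TDPH arrays, 11.54 to 11.57 on the VPH arrays, 11.19 to 11.47 on the SPH arrays and 11.26 to 11.37 on the PH arrays. It was 11.27 to 11.39 on the sham arrays and 11.46 to 11.50 on the normal arrays. The VPH arrays lay above those of the other 5 groups, with no overlap.

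In TDPH, 26 of the 41 genes were lower than in VPH (63.4%), against 9.02% of all 22125 probe sets tested and 23.1% of those in the same range of level. A single gene was higher, Psme4, against a background of 12% of all probe sets tested. The median difference of the 41 genes was -0.27, against 0.04 over all probe sets tested and -0.01 over those in the same range of level. The 3 TDPH arrays all lay below the 3 VPH arrays in 34 of the 41 genes, against 17.3% of all probe sets tested and 33.8% of those in the same range of level. The genes called lower were 5 of 6 in the alpha ring, 3 of 4 structural and 3 of 3 catalytic beta subunits, 6 of 6 ATPases, 6 of 11 other 19S subunits, 0 of 3 chaperones of 19S assembly, 2 of 4 activator subunits and 1 of 3 chaperones of 20S assembly.

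In the alpha ring, which gates the entry of substrates, Psma7 had signals of 4770, 4752 and 4332 in TDPH and of 7297, 6910 and 6869 in VPH. All TDPH arrays were below all VPH arrays, by 0.60 on the log2 scale (0.658 times the VPH level, SE 0.07, adjusted p = 3.47e-06). Psma5 had 4009, 3810 and 3855 in TDPH and 5089, 5218 and 5293 in VPH, again without overlap, and was lower in TDPH by 0.42 (SE 0.05, adjusted p = 3.61e-06). Psma2, Psma4 and Psma6 were lower than in VPH by 0.38, 0.24 and 0.27. Psma1 did not pass the test (-0.22, adjusted p = 0.086).

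The catalytic beta subunits were all lower in TDPH. Psmb6, which cuts after acidic residues, had 1810, 1928 and 1857 in TDPH and 2304, 2499 and 2657 in VPH, with a log2 difference of -0.41 (SE 0.08, adjusted p = 0.000598). Psmb5, which cuts after hydrophobic residues, had 4184, 4582 and 3990 in TDPH and 5762, 5501 and 5370 in VPH (-0.38, SE 0.06, adjusted p = 0.000111). Psmb7, which cuts after basic residues, had 4199, 3644 and 4346 in TDPH and 5615, 4988 and 5050 in VPH (-0.36, SE 0.07, adjusted p = 0.000629). For none of the 3 did the TDPH and VPH arrays overlap. Among the structural beta subunits, Psmb4 had 5588, 5894 and 5656 in TDPH and 7829, 7460 and 7649 in VPH (-0.42, SE 0.05, adjusted p = 1.51e-06). Psmb1 and Psmb3 were lower than in VPH by 0.42 and 0.41, and Psmb2 was at -0.20 and not called.

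The 6 ATPases form the ring that unfolds substrates, and all were lower in TDPH than in VPH, by 0.24 to 0.48. Against PH, 2 of the 6 were lower in TDPH (7.24% of all probe sets tested) and 2 were higher in VPH (6.04%). Psmc2 had 4984, 5258 and 5266 in TDPH and 7015, 7122 and 7105 in VPH (-0.45, 0.73 times, SE 0.06, adjusted p = 7.25e-06). Psmc6 had 3173, 3078 and 3041 in TDPH and 3881, 4541 and 4603 in VPH (-0.48, SE 0.11, adjusted p = 0.00333). In both genes each TDPH array was below each VPH array. Psmc3, Psmc5, Psmc4 and Psmc1 were lower than in VPH by 0.41, 0.30, 0.27 and 0.24.

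Among the other 19S subunits the difference of TDPH from VPH was largest for Psmd14, the enzyme that removes ubiquitin chains from the substrate. Its signals were 2620, 2561 and 2427 in TDPH and 3710, 4359 and 4131 in VPH, a difference of -0.68 without overlap (0.626 times, SE 0.07, adjusted p = 7.12e-07). Psmd7, which pairs with Psmd14, had 2329, 2054 and 2178 in TDPH and 2817, 2880 and 2838 in VPH, a difference of -0.38. Psmd12, a lid subunit, was lower than in VPH by 0.35, Psmd6 by 0.28, Psmd1 by 0.20 and Psmd8 by 0.17. The call of Psmd8 was lost with arrays centred on their medians and with quantile normalization (adjusted p = 0.0505 and 0.0923). The ubiquitin receptor Psmd4 (-0.21), the scaffold Psmd2 (-0.15) and Psmd3, Psmd11 and Psmd13 did not pass the test.

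The activators differed among themselves. PA28, which opens the 20S core without ubiquitin or ATP and is known as an interferon-induced complex, is built of Psme1 and Psme2. Psme2 had 3642, 3841 and 3580 in TDPH and 6365, 6351 and 6411 in VPH, the largest difference among the 41 genes (-0.79, 0.579 times, SE 0.05, adjusted p = 4.35e-09). Against PH, Psme2 was at -0.15 in TDPH (not called) and at 0.64 in VPH. Psme1 had 8546, 8228 and 7886 in TDPH and 10685, 10894 and 11469 in VPH (-0.42, SE 0.06, adjusted p = 6.61e-05). In both, the 2 groups stood well apart. Psme3, the nuclear PA28 subunit, did not pass the test (-0.14). Psme4, which encodes the separate activator PA200, had 2036, 1980 and 1805 in TDPH and 1665, 1763 and 1694 in VPH, and was higher in TDPH (0.18, SE 0.06, adjusted p = 0.0403). That call was lost with centred arrays (0.12, adjusted p = 0.395) and with quantile normalization (adjusted p = 0.0532). Of the other probe sets of Psme4, 1 of mean log2 level 10.80 was called higher in TDPH (0.45, adjusted p = 0.00181). A dimmer one, of mean log2 level 9.36, was at -0.28 and not called (adjusted p = 0.0683).

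Among the assembly chaperones, a single gene was called. Of the 20S assembly chaperones, Psmg4 was lower by 0.34 (1563, 1556 and 1464 in TDPH against 1951, 1938 and 1914 in VPH, adjusted p = 0.00275). Psmg1 (-0.16) and Psmg2 (-0.08) did not pass the test. The 19S chaperones Psmd5 (0.03), Psmd9 (-0.14) and Psmd10 (-0.24) did not pass it either. Whether the assembly factors differed from the subunits was not tested.

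**Figure D2:**
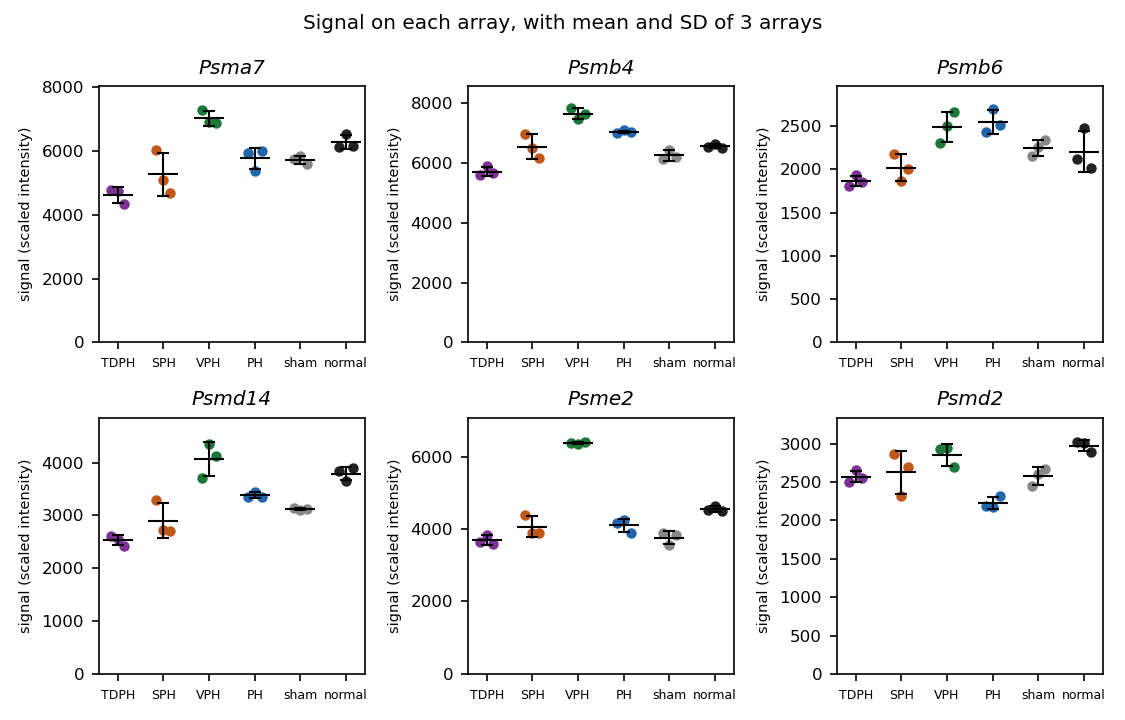
Signal (scaled intensity, linear axis from 0) of 6 genes on each array, with points for arrays and bars for the mean and SD of 3 arrays. In Psma7, Psmb4, Psmd14 and Psme2 the VPH points lie above the TDPH points and above those of PH, while Psmb6 is about as high in PH as in VPH and Psmd2 is lowest in PH.

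The TDPH to VPH difference kept its direction under each scaling of the arrays. With arrays centred on their medians 27 genes were lower and 0 higher (median -0.34), against 9.5% and 8.08% of all probe sets tested. With quantile normalization 26 were lower and 0 higher (median -0.29), against 9.56% and 10.5%. In the authors' deposited table of log2 ratios the median of the 41 genes was -0.32, with 38 of 41 below 0. That table holds no signal column that matched VPH array 3, and 1 of its VPH signal columns matched no VPH array, so its VPH ratios may rest on an array not analysed here. Leaving out single arrays gave 23 to 26 calls.

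Markers of other cell types differed between the same 2 groups. The summed signal of 18 lymphocyte markers was 12157 to 12937 in TDPH and 27351 to 27992 in VPH, that of 12 macrophage markers 48268 to 50064 in TDPH and 64338 to 67638 in VPH, and that of 7 neutrophil markers 5024 to 5853 in TDPH and 14541 to 14890 in VPH. Cd8b among the lymphocyte markers and Camp among the neutrophil markers did not pass the filter in any group. The sum of the 16 hepatocyte markers was 622437 to 668660 in TDPH and 646954 to 684494 in VPH. The Gapdh ratio of 3′ to 5′ signal was 1.28 to 1.32 in TDPH and 1.17 to 1.19 in VPH, and that of Actb 1.95 to 2.05 in TDPH and 1.80 to 1.86 in VPH. The sum of 14 stellate cell markers was 4342 to 4546 in TDPH and 6472 to 6850 in VPH, and of the 12 tested 3 were called lower and 1 higher. The sum of 10 endothelial markers was 7326 to 7730 in TDPH and 6657 to 6965 in VPH. Of the 9 tested, 5 were called higher in TDPH and 1 lower, against 12% and 9.02% of all probe sets tested. The sum of 10 cholangiocyte markers, 7 of which did not pass the filter, was 1496 to 1608 in TDPH and 1029 to 1350 in VPH. That of 5 red cell markers, 1 of which did not pass it, was 9305 to 10604 in TDPH and 14736 to 15410 in VPH. The part of these in the difference of the proteasome genes was not tested.

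The immunoproteasome subunits, which stand in for the constitutive catalytic subunits, differed between the same groups by more. Psmb9 had 2720, 2824 and 2673 in TDPH and 6963, 7097 and 7144 in VPH (-1.36, SE 0.05, adjusted p = 1.95e-12). Psmb10 was lower by 1.04 and Psmb8 by 0.74, so that 3 of 3 were lower in TDPH, against 9.02% of all probe sets tested. In PH against sham 3 of 3 were higher, by 0.26 to 0.61, against 8.75% of all probe sets tested. In VPH against PH, 3 of 3 were higher (Psmb9 1.29, Psmb10 0.93, Psmb8 0.74), against 6.04% of all probe sets tested. In sham against normal liver 3 of 3 were lower (-1.41, -0.84 and -0.69 in the same order), against 9.01%. Their constitutive counterparts Psmb6, Psmb7 and Psmb5 were called in neither of these 2 comparisons, with differences of -0.04, 0.16 and 0.09 in VPH against PH and of 0.03, -0.10 and 0.05 in sham against normal liver. In TDPH against PH, 0 of 3 immunoproteasome subunits were called (-0.11 to -0.002), while 3 of 3 constitutive catalytic subunits were lower. The background was 7.24% of all probe sets tested and 22% of those in the same range of level. These calls depended on the scaling. With centred arrays Psmb9 was called lower by limma (-0.23, adjusted p = 0.0421), and with quantile normalization Psmb7 lost its call (adjusted p = 0.478). In SPH against PH, 0 of 3 immunoproteasome subunits were called, and 1 of 3 constitutive ones was lower, against 6.8%.

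The proteasome genes were also lower in SPH than in VPH. In SPH, 23 of the 41 genes were lower (56.1%), against 10.3% of all probe sets tested and 22.2% of those in the same range of level, and 0 were higher by limma, against 9.96%. The median difference was -0.19, against -0.03 over all probe sets tested and -0.02 in the same range of level. Psmd12 had 1754, 1601 and 1773 in SPH and 2382, 2343 and 2551 in VPH, with no overlap (-0.50, SE 0.06, adjusted p = 6.14e-06). Psmc6 had 3057, 2373 and 3222 in SPH and 3881, 4541 and 4603 in VPH (-0.60, SE 0.11, adjusted p = 0.000591). Psme2 and Psme1 were lower than in VPH by 0.65 and 0.41, and Psmd14 by 0.49. With centred arrays 12 were lower (7.38% of all probe sets tested), and leaving out single arrays gave 19 to 25 calls. TDPH and SPH were both set against the same VPH arrays, so these 2 comparisons are not independent. The neutrophil sum was 19915 to 41911 in SPH and 14541 to 14890 in VPH, and the lymphocyte sum 10966 to 25162 in SPH and 27351 to 27992 in VPH. The hepatocyte sum was 749153 to 796962 in SPH and 646954 to 684494 in VPH, with 11 of the 16 markers called higher in SPH. The Gapdh ratio was 1.28 to 1.29 in SPH and 1.17 to 1.19 in VPH. The part of these in the result was not tested.

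VPH was compared with PH to see the effect of cutting the vagus. With the vagus cut, 12 of the 41 genes were higher (29.3%), against 6.04% of all probe sets tested and 11.2% of those in the same range of level, and 0 were lower by limma, against 5.93%. The median difference was 0.12, against 0.05 over all probe sets tested and -0.02 in the same range of level. The 12 were Psma4, Psma5 and Psma7 of the alpha ring, the ATPases Psmc2 and Psmc3, the 19S subunits Psmd2, Psmd4, Psmd7 and Psmd14, the chaperone Psmd5, and Psme1 and Psme2 of PA28. None of the 7 beta subunits was called.

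Psme2 had 6365, 6351 and 6411 in VPH and 4154, 4241 and 3903 in PH, and its VPH arrays stood apart from all others of the study (0.64, 1.55 times, SE 0.05, adjusted p = 1.53e-07). Psmd2, a scaffold that binds ubiquitin-like domains, had 2924, 2941 and 2690 in VPH and 2183, 2178 and 2323 in PH (0.35, SE 0.07, adjusted p = 0.00121). Psmd7 had 2817, 2880 and 2838 in VPH and 2275, 2260 and 2268 in PH (0.33, SE 0.07, adjusted p = 0.00438). Psme1 had 10685, 10894 and 11469 in VPH and 8060, 10086 and 8466 in PH (0.32, adjusted p = 0.00196), with PH array 2 near the VPH arrays. In none of the 4 genes, chosen for their large differences, did the groups overlap. The count depended on the scaling. With centred arrays 1 gene was higher (Psme2, against 3.16% of all probe sets tested). The median was then 0.03, against -0.11 in the same range of level. Quantile normalization gave 16 higher, against 5.07%. The lymphocyte sum was 27351 to 27992 in VPH and 11109 to 11306 in PH, and the macrophage sum 64338 to 67638 in VPH and 48802 to 49323 in PH. The neutrophil sum was 14541 to 14890 in VPH and 11876 to 12433 in PH, and the Gapdh ratio 1.17 to 1.19 in VPH and 1.20 to 1.23 in PH, and the part these had in the result was not tested.

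TDPH was compared with PH for the effect of cutting both supplies. In TDPH, 16 of the 41 genes were lower (39%), against 7.24% of all probe sets tested and 22% of those in the same range of level, and 2 were higher (4.88%), against 10.5%. The median difference was -0.17, against 0.11 over all probe sets tested and -0.02 in the same range of level. The genes called lower were 3 of 4 structural and 3 of 3 catalytic beta subunits, 4 of 6 in the alpha ring, 2 of 6 ATPases, 3 of 11 other 19S subunits, 0 of 4 activator subunits and 1 of 3 chaperones of 20S assembly.

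Psmb6 had 1810, 1928 and 1857 in TDPH and 2435, 2697 and 2508 in PH (-0.45, 0.734 times, SE 0.08, adjusted p = 0.000348). Psmb1 had 7906, 7674 and 7536 in TDPH and 9617, 10197 and 9670 in PH (-0.35, SE 0.04, adjusted p = 7.56e-06). Psmd14 had 2620, 2561 and 2427 in TDPH and 3353, 3447 and 3340 in PH (-0.41, SE 0.07, adjusted p = 0.000261). The TDPH arrays were the lower ones in all 3 genes, with no overlap. Psma7 had 4770, 4752 and 4332 in TDPH and 5929, 5378 and 6002 in PH, and fell by 0.32 (adjusted p = 0.00283), a call lost with quantile normalization (adjusted p = 0.0533), as were those of Psma2, Psma5, Psma6, Psmb7, Psmc2 and Psmd8. The genes higher in TDPH were the 19S assembly chaperone Psmd5 (1485, 1398 and 1458 in TDPH against 1186, 1205 and 1180 in PH, 0.28, adjusted p = 0.0169) and Psmd2 (2506, 2653 and 2556 in TDPH against 2183, 2178 and 2323 in PH, 0.21, adjusted p = 0.0379). Both lost their call with centred arrays, at 0.12 and 0.05. With centred arrays the split of calls was 0 higher and 22 lower, against 3.83% and 11.3% of all probe sets tested. With quantile normalization it was 2 higher and 9 lower, against 6.7% and 6.68%. The median was -0.32 with centred arrays and -0.09 with quantile normalization, against -0.17 and -0.02 in the same range of level. The lymphocyte sum was 12157 to 12937 in TDPH and 11109 to 11306 in PH, the neutrophil sum 5024 to 5853 in TDPH and 11876 to 12433 in PH, and the stellate sum 4342 to 4546 in TDPH and 6450 to 6585 in PH. The Gapdh ratio was 1.28 to 1.32 in TDPH and 1.20 to 1.23 in PH, and the Actb ratio 1.95 to 2.05 in TDPH and 1.65 to 1.85 in PH. The part of these in the result was not tested.

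TDPH and SPH both lost the sympathetic supply, and by their labels TDPH lost the vagal supply as well. In TDPH, 8 of the 41 genes were lower (19.5%), against 6.27% of all probe sets tested and 15.2% of those in the same range of level, and 1 was higher, Psmd5, against 8.12%. The median difference was -0.11, against 0.06 over all probe sets tested and 0.01 in the same range of level. Psmb1 had 7906, 7674 and 7536 in TDPH and 9236, 8546 and 9041 in SPH (-0.21, SE 0.04, adjusted p = 0.00127). Psmb4, Psmb3, Psmb5, Psma5, Psma6, Psmd1 and Psmd6 fell by 0.13 to 0.26. Psmd5 had 1485, 1398 and 1458 in TDPH and 1305, 988 and 1094 in SPH, all SPH arrays being the lower (0.36, SE 0.08, adjusted p = 0.00305). A fit on the arrays of these 2 groups alone called 0 of the 41 genes in limma (10 at an unadjusted p under 0.05), and leaving out TDPH array 1 or 3 gave 5 and 4 calls. Psmd5 lost its call with centred arrays (adjusted p = 0.07), and Psma5, Psma6, Psmb3 and Psmb5 lost theirs with quantile normalization. The neutrophil sum was 5024 to 5853 in TDPH and 19915 to 41911 in SPH (6 of 6 tested markers lower in TDPH), and the macrophage sum 48268 to 50064 in TDPH and 57926 to 63170 in SPH (9 of 12 lower). The hepatocyte sum was 622437 to 668660 in TDPH and 749153 to 796962 in SPH, with 13 of the 16 markers lower in TDPH, and the part these had in the result was not tested.

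**Figure D3:**
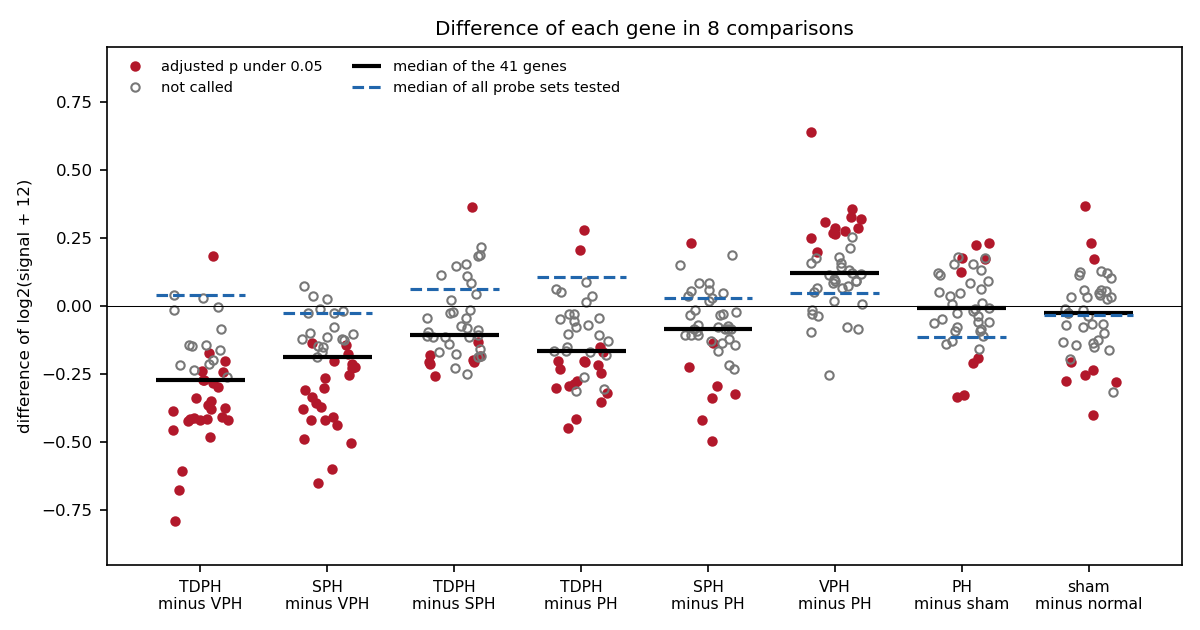
Difference of log2(signal + 12) of each of the 41 genes in 8 comparisons of 2 groups, with filled points for genes at an adjusted p under 0.05 and open points for the others. Black bars mark the median of the 41 genes and dashed bars that of all 22125 probe sets tested. The 41 genes lie furthest below 0 in TDPH minus VPH (median -0.27), and their median is above 0 only in VPH minus PH (0.12).

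SPH was compared with PH for the effect of cutting the sympathetic supply. In SPH, 7 of the 41 genes were lower (17.1%), against 6.8% of all probe sets tested and 19.1% of those in the same range of level, so that the share was near that of similarly bright probe sets. A single gene was higher, Psmd2, against 7.41% of all probe sets tested. The median difference was -0.08, against 0.03 over all probe sets tested and -0.03 in the same range of level. Psmd12 had 1754, 1601 and 1773 in SPH and 2149, 2074 and 2196 in PH (-0.32, SE 0.06, adjusted p = 0.00106). Psmb6 had 2180, 1867 and 2001 in SPH and 2435, 2697 and 2508 in PH (-0.34, SE 0.08, adjusted p = 0.00485). Neither overlapped between the groups.

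Psmd10 had 649, 608 and 433 in SPH and 662, 910 and 808 in PH (-0.49, SE 0.13, adjusted p = 0.0161), with array 3 of SPH well below the others. The ATPase Psmc6 had 3057, 2373 and 3222 in SPH and 4066, 3289 and 4198 in PH, the SPH arrays being the lower (-0.42, adjusted p = 0.013). Psmg1 fell by 0.29, Psmd14 by 0.22 and Psmb1 by 0.14. Psmd2 was at 2871, 2321 and 2691 in SPH and 2183, 2178 and 2323 in PH, so that the groups overlapped (0.23, adjusted p = 0.0231), and its call was lost with centred arrays (0.15, adjusted p = 0.278). Without SPH array 2 or 3 there were 4 and 5 calls, and without PH array 2 or 3 there were 3 and 4. The neutrophil sum was 19915 to 41911 in SPH and 11876 to 12433 in PH, the macrophage sum 57926 to 63170 in SPH and 48802 to 49323 in PH, and the hepatocyte sum 749153 to 796962 in SPH and 666404 to 690833 in PH. The Gapdh ratio was 1.28 to 1.29 in SPH and 1.20 to 1.23 in PH. The part of these in the result was not tested.

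PH was compared with sham for the response to loss of liver tissue. Few proteasome genes differed, and in both directions. In PH, 5 of the 41 genes were higher (12.2%), against 8.75% of all probe sets tested and 20.6% of those in the same range of level. Lower were 4 (9.76%), against 13.6% and 20.2%. The median difference was -0.01, against -0.11 over all probe sets tested and -0.01 in the same range of level.

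Psmb1 had 9617, 10197 and 9670 in PH and 8322, 8318 and 8592 in sham (0.22, SE 0.04, adjusted p = 0.000489). Psmd8, a 19S lid subunit, had 3907, 4205 and 4115 in PH and 3303, 3644 and 3473 in sham (0.23, SE 0.05, adjusted p = 0.00196). Psmd11, another lid subunit, had 2912, 3660 and 2850 in PH and 3730, 4148 and 3867 in sham (-0.32, SE 0.08, adjusted p = 0.00627). None of the 3 genes overlapped between the groups, although PH array 2 of Psmd11 came close to sham. The ATPase Psmc1 had 2276, 2312 and 2277 in PH and 2078, 2004 and 1993 in sham (0.18, adjusted p = 0.0366), and the beta subunit Psmb4 had 7005, 7094 and 7031 in PH and 6122, 6450 and 6196 in sham (0.17, adjusted p = 0.00938). Psma6 was higher by 0.13. Among the lower genes, Psmc6 had 4066, 3289 and 4198 in PH and 4272, 4807 and 5503 in sham (-0.34, adjusted p = 0.0332), and its 2 groups lay close together. Psmd2 had 2183, 2178 and 2323 in PH and 2454, 2609 and 2672 in sham (-0.21, adjusted p = 0.0287). Psme4 had 1887, 1863 and 1727 in PH and 2137, 2082 and 2027 in sham (-0.19, adjusted p = 0.0315). In none of these genes did the PH and sham arrays overlap. With centred arrays the split was 13 higher and 0 lower, against 13.6% and 6.07% of all probe sets tested (median 0.15, the same as in the same range of level), so that none of the 4 falls was then called. With quantile normalization it was 2 higher and 7 lower, against 9.75% and 10.4%, and Psmc1, Psmb4 and Psma6 lost their calls (adjusted p = 0.0659, 0.501 and 0.622). Without sham array 2, or without PH array 2, there were 5 calls. The neutrophil sum was 11876 to 12433 in PH and 1877 to 2125 in sham, the lymphocyte sum 11109 to 11306 in PH and 5052 to 5641 in sham, and the stellate sum 6450 to 6585 in PH and 2818 to 3287 in sham. The Gapdh ratio was 1.20 to 1.23 in PH and 1.35 in sham, and the Actb ratio 1.65 to 1.85 in PH and 2.11 to 2.25 in sham, and the part these had in the result was not tested.

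Sham liver was set against normal liver to see the response to the operation alone, and there the operation and the elapsed time cannot be told apart. In sham liver, 3 of the 41 genes were higher (7.32%), against 7.77% of all probe sets tested and 19.6% of those in the same range of level. Lower were 6 (14.6%), against 9.01% and 16.5%. These shares were at or below those of similarly bright probe sets. The median difference was -0.03, against -0.03 over all probe sets tested and 0.02 in the same range of level.

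The chaperones of 19S assembly moved in opposite directions here. Psmd5 had 1361, 1345 and 1235 in sham and 1740, 1702 and 1762 in normal liver (-0.40, SE 0.08, adjusted p = 0.000978). Psmd9 had 1461, 1458 and 1332 in sham and 1160, 1041 and 1092 in normal liver (0.37, SE 0.08, adjusted p = 0.00179). In both genes the groups stood apart, and both calls held with centred arrays and quantile normalization. Psmg4 had 1932, 1705 and 1915 in sham and 1556, 1552 and 1615 in normal liver (0.23, adjusted p = 0.0414), and Psma6 had 9156, 9423 and 9042 in sham and 8181, 8290 and 8048 in normal liver (0.17, adjusted p = 0.00681). Both were higher in sham without overlap, and Psma6 lost its call with quantile normalization, at a difference of 0.05 (adjusted p = 0.459). The deubiquitinase Psmd14 had 3146, 3096 and 3120 in sham and 3833, 3654 and 3892 in normal liver (-0.28, adjusted p = 0.00634). Psme2 had 3900, 3557 and 3840 in sham and 4523, 4647 and 4492 in normal liver (-0.27, adjusted p = 0.000977). Psma5 had 4307, 4566 and 4542 in sham and 5324, 5578 and 5085 in normal liver (-0.25, adjusted p = 0.000802). These 3 were lower in sham on every array, and lost their calls with centred arrays, where the adjusted p was 0.103 to 0.143. Psme1 and Psmd2 fell by 0.23 and 0.21. With centred arrays there were 3 higher and 1 lower, against 8.01% and 6.08%. The lymphocyte sum was 5052 to 5641 in sham and 25753 to 26317 in normal liver, and the hepatocyte sum 640273 to 674910 in sham and 550941 to 564810 in normal liver. The red cell sum was 14793 to 15334 in sham and 4633 to 5056 in normal liver. The macrophage sum was 41324 to 43431 in sham and 53350 to 56058 in normal liver, with 9 of 12 markers called lower in sham and 2 higher. The Gapdh ratio was 1.35 in sham and 1.27 to 1.31 in normal liver. The part of these in the result was not tested.

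**Figure D4:**
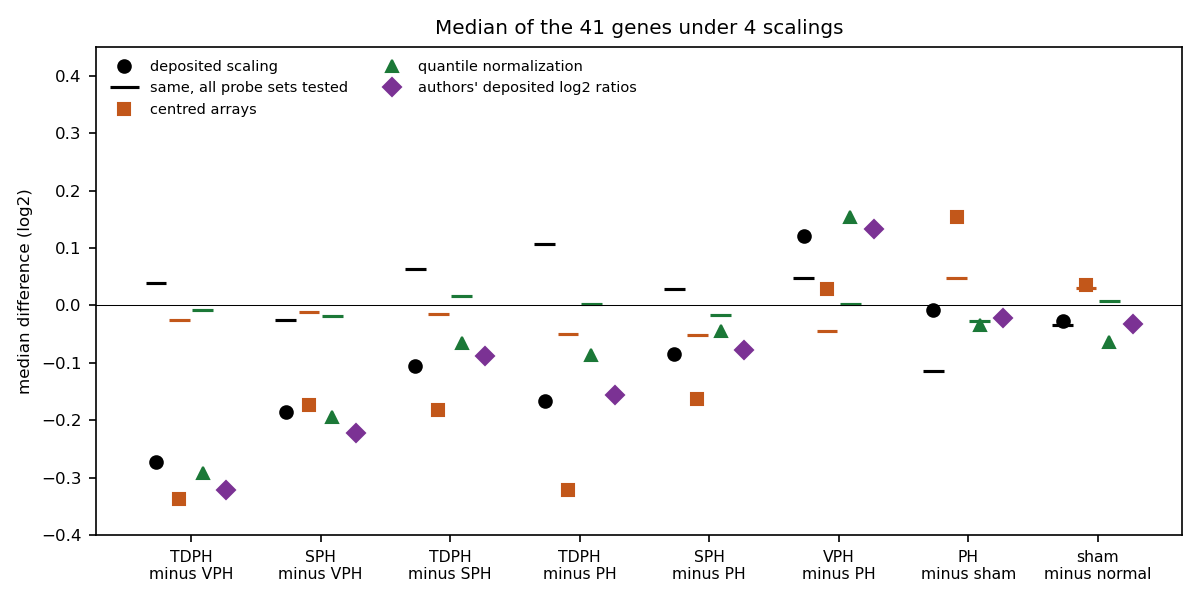
Median log2 difference of the 41 genes in 8 comparisons under 4 scalings, with circles for the deposited scaling, squares for arrays centred on their medians, triangles for quantile normalization and diamonds for the authors' deposited log2 ratios. Short bars give the median of all probe sets tested in the colour of the scaling. TDPH minus VPH lies between -0.34 and -0.27 in all 4, while PH minus sham is -0.01 as deposited and 0.15 with centred arrays.

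The effect of cutting both supplies was then set against the effects of the single cuts, as TDPH minus SPH minus VPH plus PH, which is 0 if the effects add on the log2 scale. For 16 of the 41 genes it was below 0 (39%), against 5.91% of all probe sets tested and 12.6% of those in the same range of level, and for 0 it was above 0 by limma, against 6.4%. The median was -0.25, against 0.02 over all probe sets tested and 0.03 in the same range of level. It was lowest for Psme2 (-0.77, SE 0.08, adjusted p = 9.61e-07), followed by Psma5 (-0.47, SE 0.07, adjusted p = 9.3e-05), Psma7 (-0.47) and Psmd6 (-0.47). In these 4 genes the mean levels in PH, SPH and TDPH lay below that of VPH, as the values of Psma5 show, with means of 3891 in TDPH, 4488 in SPH, 5200 in VPH and 4321 in PH. In Psmd6 the SPH mean (2354) was close to that of VPH (2398). With centred arrays 5 genes were called, against 3.91%. The contrast over all probe sets was called with at least a 2-fold size for 3.42%, and for 0 of the 41 genes. In the same contrast 12 of 12 macrophage, 9 of 17 lymphocyte and 5 of 6 neutrophil markers tested were called below 0, with 0 above. Of 16 hepatocyte markers 9 were called below and 2 above, and of 9 endothelial markers 1 each way. The immunoproteasome subunits Psmb9, Psmb10 and Psmb8 were at -1.39, -1.03 and -0.76. The part of these in the result was not tested.

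Genes outside the set but of the same pathway were described as counts. In TDPH against VPH the share of all probe sets tested was 12% higher and 9.02% lower. Sem1, a small 19S subunit whose symbol falls outside the rule, was lower in TDPH than in VPH (-0.22, adjusted p = 0.00578) and than in PH (-0.34, adjusted p = 0.000127). Of 15 proteasome-associated genes, 2 were higher and 4 lower in TDPH than in VPH, the deubiquitinase Usp14 among the lower (-0.34, adjusted p = 0.00025) and the ligase Ube3c among the higher (0.39, adjusted p = 0.0156). Pomp, the chaperone that matures the 20S core, was lower in TDPH than in VPH by 0.19 (adjusted p = 0.0012). The ubiquitin receptor Adrm1 did not pass the test in TDPH against VPH (-0.03), and was lower in TDPH than in PH (-0.34, adjusted p = 0.0181) and in VPH than in PH (-0.30, adjusted p = 0.0434). Uchl5, the deubiquitinase bound by Adrm1, was called in SPH against PH alone of the 8 comparisons (-0.31, adjusted p = 0.027). Of 28 conjugating enzymes 4 were higher and 3 lower, and of 17 Vcp cofactors 1 was higher and 1 lower. Vcp itself was higher in TDPH (0.23, adjusted p = 0.00513), the direction opposite to most proteasome genes.

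Nfe2l1, the factor known to raise subunit genes, had signals of 300, 331 and 364 in TDPH and 300, 199 and 256 in VPH and did not pass the test (0.40, adjusted p = 0.0839). Of 10 genes of the Nfe2l1 list tested, 5 were higher and 1 lower in TDPH than in VPH, against the same 12% and 9.02%. The 1 lower was the related factor Nfe2l2, which the list holds as well (-0.29, adjusted p = 0.0134). Nfe2l2 was also lower in sham than in normal liver (-1.17, adjusted p = 1.73e-09). In PH against sham, 3 of 10 genes of the Nfe2l1 list were higher and 3 lower, with its small Maf partners Maff (4.42, adjusted p = 5.58e-10), Mafk (1.44) and Mafg (0.73) as the higher ones. Of 16 targets of Nfe2l2, 10 were higher and 0 lower in PH, led by Srxn1, a sulfiredoxin (2.12, adjusted p = 1.07e-10). Both counts stand against 8.75% of all probe sets tested higher and 13.6% lower. Zfand2a and Zfand5, which bind the proteasome, were higher in PH by 1.70 (adjusted p = 0.0163) and 1.07 (adjusted p = 1.85e-09). The proteasome genes in the same comparison had a median of -0.01.

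Of the 41 genes, 10 had further probe sets. There were 16 of these and 13 were tested, in 117 comparisons. A further probe set was called in the direction opposite to the chosen one in 0 of them. An opposite call needs both probe sets to be called. Of the 13, the sign matched in 12 in SPH against VPH, 11 in TDPH against VPH and 11 in VPH against PH. It matched in 8 in TDPH against SPH, 8 in PH against sham, 7 in TDPH against PH, 7 in SPH against PH and 6 in sham against normal liver. Some further probe sets were called where the chosen one was not, as for Psmd11 in SPH against VPH (-0.51 against -0.10). In TDPH against VPH, 5 of the 13 were lower and 1 higher, with a median of -0.28. In TDPH against SPH their median was 0.11, against -0.11 for the 41 genes. In TDPH against PH their median was -0.02, against -0.17, with 2 lower and 1 higher. In PH against sham it was -0.22, against -0.01, with 3 lower and 0 higher. RefSeq names 44 pseudogenes for 18 of the genes, among them Psma6, Psma7, Psmb3 and Psme3, so their signals may include other copies.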

How the data were processed

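Liver RNA was hybridised to 18 Affymetrix Rat Genome 230 2.0 arrays. The authors deposited a table of signal intensity, linear, with 31099 probe sets for every array. GCOS 2.0 is the software the submitters' processing notes name, while the background method is not stated in the sources used here. The mean without the lowest and highest 2% of signals was the same on each array, so the arrays had been scaled before deposit. A second deposited table gives log2 ratios of each 2 h array to each normal array, per the file headers, and their computation is not stated in the sources used here. In that table the first signal column under the VPH heading matched no VPH array (57 of 31099 probe sets within 0.06), and 15 further signal columns were not used.

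Signals were taken as log2(signal + 12). After 57 controls had been removed, the 22125 probe sets that exceeded the 40th percentile on 3 or more arrays were tested. A limma 3.58.1 model (R 4.3.3) of 6 group means over all arrays, with eBayes and a trend on the mean level, had 12 residual and 7.1 prior degrees of freedom. P-values were two-sided and adjusted by Benjamini-Hochberg over all probe sets of a comparison, and the method was checked on simulated data. The number of arrays limits the precision. Same-numbered arrays did not deviate together (r = -0.03 to 0.06 over 45 pairs, 0 over 0.1), so replicate numbers were not used as pairs. Alternatives were centred arrays, quantile normalization, a pseudocount of 90, no filter, only the groups compared, no trend, a replicate block, the mean over probe sets of a gene, and leaving out single arrays. The authors' log2 ratios and the background over probe sets of similar level were added after seeing the data.

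The genes and lists were chosen with earlier results of these data known. Any of the 41 genes could be named. Values per array are given for up to 4 called genes each way with the largest difference in the comparisons of PH with sham, sham with normal and each denervated group with PH, and related genes from a fixed list are given whether called or not, apart from some that are not reported here. Further genes were chosen after their values were seen. Genes chosen for large called differences tend not to overlap between groups, so their lack of overlap is no separate support. The share of probe sets without overlap is given for TDPH against VPH alone. Promoter sequences came from RefSeq tables on GRCr8.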

Additional observations from a re-analysis of the deposited data

Results flagged for a closer look

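For 16 of the 41 proteasome genes, the effect of cutting the sympathetic supply differed with the state of the vagal supply, by the test of TDPH minus SPH minus VPH plus PH (limma, adjusted p under 0.05 over 22125 probe sets), against 5.91% of all probe sets tested. The log2 value was -0.77 for Psme2, -0.47 for Psma5, -0.47 for Psma7, -0.47 for Psmd6, -0.45 for Psmd14 and -0.40 for Psmd7. It was -0.38 for Psmd2, -0.37 for Psmc2, -0.33 for Psmb7, -0.33 for Psme1, -0.31 for Psmb4 and -0.30 for Psma4. It was -0.30 for Psmb3, -0.30 for Psmb5, -0.28 for Psmb1 and -0.20 for Psma6. All 16 values were below 0 and the arrays of a group were technical replicates, so that differences between animals are not in these tests. Markers of several cell types and the immunoproteasome subunits were also below 0 in this contrast, and their part was not tested.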

How the results depend on the processing

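Of the 30 named differences, 0 reversed under any alternative run, a count that does not cover every called gene. The median of PH minus sham and that of sham minus normal, both near 0, changed sign with centred arrays (0.15 and 0.04). The first also changed sign on leaving out single arrays. With centred arrays the median difference was 0.15 (PH minus sham), -0.16 (SPH minus PH), 0.0286 (VPH minus PH) and -0.32 (TDPH minus PH), and the count of genes called was 4 (sham minus normal), 1 (VPH minus PH), 12 (SPH minus VPH) and 5 (the non-additivity contrast). With quantile normalization the count was 11 in TDPH minus PH, with a median of -0.0856, and 5 in TDPH minus SPH. Without a trend it was 3 (PH minus sham), 5 (sham minus normal), 3 (SPH minus PH), 7 (VPH minus PH) and 4 (TDPH minus SPH). With only the groups compared it was 2 in SPH minus PH and 0 in TDPH minus SPH (limma, 10 at an unadjusted p under 0.05). Leaving out single arrays gave counts of 5 to 8 (PH minus sham), 6 to 8 (sham minus normal), 3 to 12 (SPH minus PH), 9 to 11 (VPH minus PH), 12 to 15 (TDPH minus PH), 4 to 10 (TDPH minus SPH), 23 to 26 (TDPH minus VPH), 19 to 25 (SPH minus VPH) and 13 to 19 (non-additivity). The medians then ranged from -0.03 to 0.02, -0.05 to -0.00, -0.13 to -0.06, 0.11 to 0.14 and -0.18 to -0.14 in the first 5 of these comparisons, and from -0.29 to -0.24 in TDPH minus VPH. The replicate block gave 12 higher and 0 lower in VPH minus PH, and 1 higher and 26 lower in TDPH minus VPH. Of 30 named differences under 420 alternatives, 347 kept their call, 73 lost it (38 on leaving out an array, 13 with centred arrays) and 0 reversed. The causes were not tested. All values rest on 3 technical arrays a group, so the spread between animals is not measured, and no liver was denervated without PH.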
